A study of Rattus norvegicus with 12 samples.

Results

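The potassium channel subunit genes of the rat were described in hippocampal slice cultures treated with antibodies against Nogo-A, a membrane protein of myelin and neurons that restrains neurite growth. They were taken as every probe set whose annotation holds exactly 1 gene symbol and whose symbol starts with Kcn, averaged per gene. This gave 126 of 31042 probe sets and 75 of 14217 genes. By the kind of subunit, 31 encode voltage-gated pore subunits, including silent ones that join other pores, 13 encode accessory subunits, 15 inward rectifiers, 11 tandem-pore-domain leak channels and 5 channels opened by calcium or sodium.

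There were 4 groups with 3 arrays each. 7B12 cultures received a monoclonal antibody that binds amino acids 763 to 820 of Nogo-A. 11C7 cultures received a monoclonal antibody that binds amino acids 623 to 640 of it. IgG cultures received a monoclonal antibody raised against wheat auxin, and NT cultures received none. All groups shared hippocampal slices of 350 µm from Wistar rats at postnatal day 7, kept at 33 °C in 5% CO2 for 26 days in vitro. From day 21 an antibody was present for 5 days at a dose of 3 µg/ml, and the medium was renewed every 2 days. Each array holds the RNA of 24 pooled cultures, so single animals are not resolved within an array, and the design text gives other animals for each replicate. Replicates carry the numbers 1 to 3 in every group, an array is called by its group and number (NT 1), and the labels do not say what a number marks.

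As background, potassium channels let potassium leave or enter a cell along its gradient and so set its resting voltage, its firing threshold and the shape of its spikes. Voltage-gated pores open on depolarisation, inward rectifiers pass current best near the resting voltage, tandem-pore-domain channels leak, and the calcium-activated ones follow calcium entry. Accessory subunits change the gating or the surface delivery of the pores, and in the hippocampus axons, dendrites, interneurons and astrocytes each use a different set of these genes.

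Every value below is log2 of the deposited ratio less the median of its array, so 0 is the middle of the array and differences of 1 are doublings; the level of a gene, and thus its presence in the tissue, cannot be read from it. A probe set is called dim here where its median ratio over the 12 arrays was under 1, which held for 29.4% of the Kcn probe sets and 23.6% of all. All probe sets were dim for 19 Kcn genes, some for 11 and none for 45. The median SD within groups was 1.07 for the 19, 0.778 for the 11 and 0.602 for the 45, against 0.358 over all genes. Of the 31 Kcn genes with several probe sets, 11 had probe sets that differed in sign between replicate numbers 2 and 1, among them Kcna6, Kcnd3, Kcnma1 and Kcnq3. In pooled tissue, fewer cells of a type and less RNA per cell cannot be told apart.

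**Figure D1:**
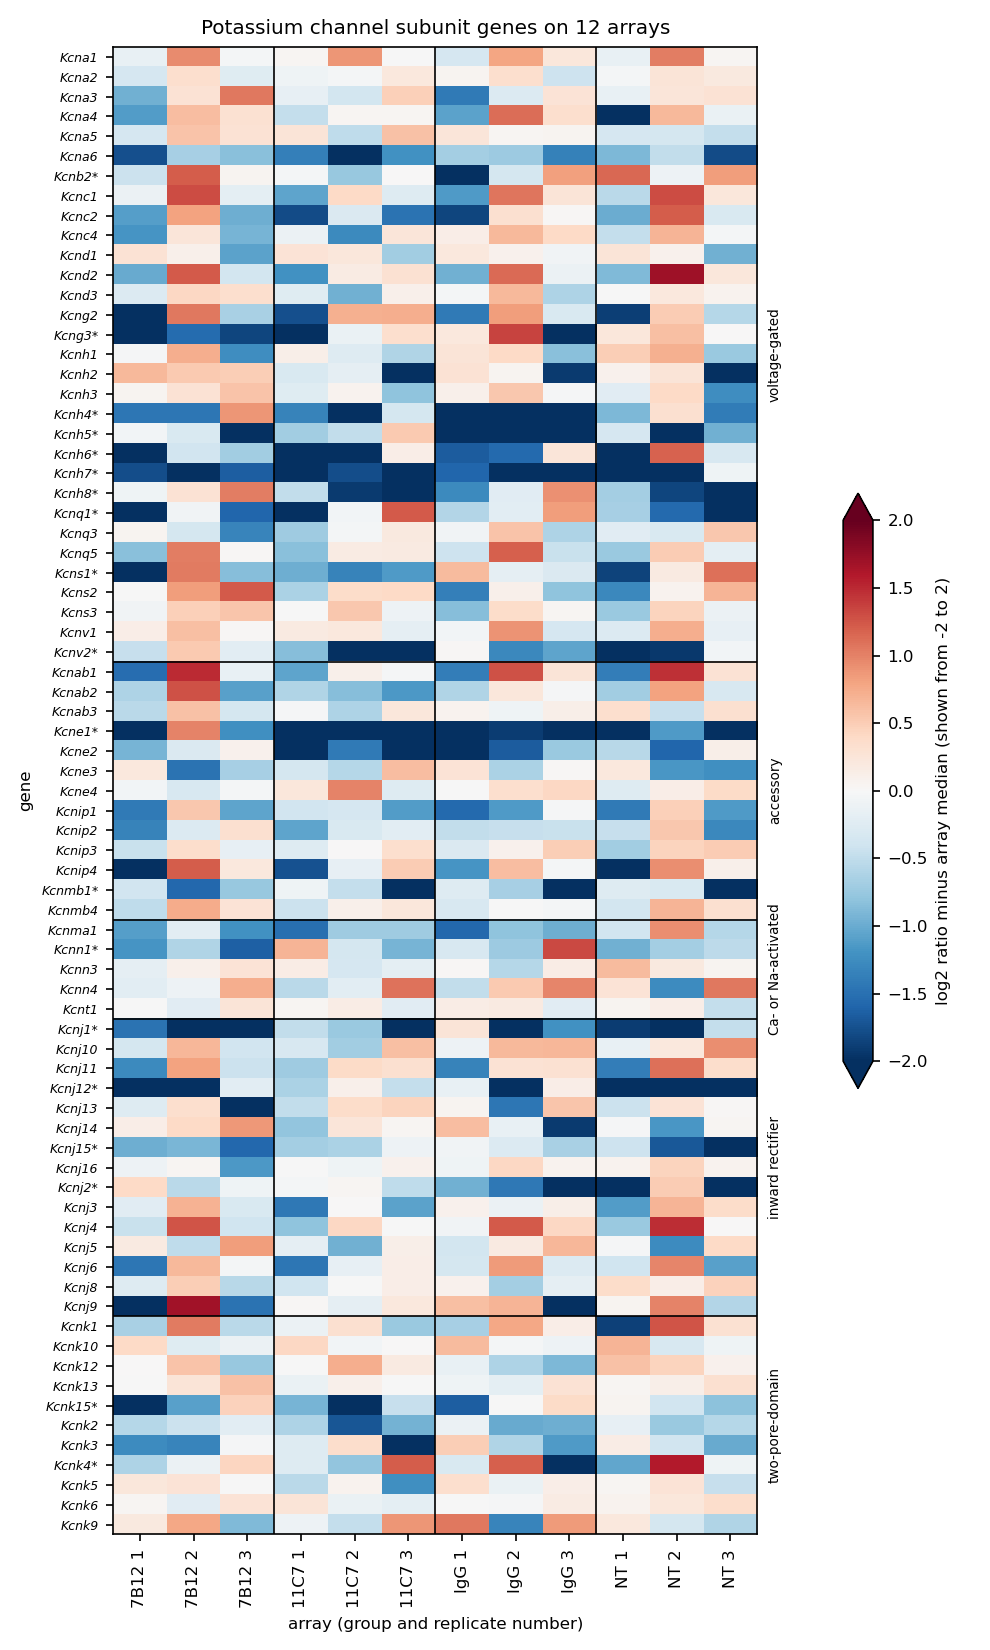
Log2 ratio less the array median of each Kcn gene (rows, by kind of subunit) on each of the 12 arrays (columns, by group and replicate number); the colour scale runs from -2 to 2 and an asterisk marks genes whose probe sets are all dim. The columns of number 1 are mostly blue (low) and those of number 2 mostly red (high) in the 18 genes called higher in number 2, which were chosen by that difference, and 0 Kcn genes passed between groups.

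Whether 7B12 changed the potassium channel genes was tested against the mean of IgG and NT. No Kcn gene passed limma's test at an adjusted p of 0.05, and 0 of 14217 genes did (0%). At an unadjusted p under 0.05 there were 3 Kcn genes, which is 4% of 75 against 6.05% of all genes; 1 was higher and 2 were lower, against 3.91% and 2.14%. The median difference over the Kcn genes was -0.04, against 0.01 over all genes, and 35 of 75 were above 0, against 52.1% of all genes. The 3 were Kcns2, Kcng3 and Kcnj16.

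Kcns2 encodes a silent subunit that alters other voltage-gated pores. It stood at -0.01, 0.84 and 1.23 in 7B12 cultures numbered 1, 2 and 3, against -1.37, 0.10 and -0.80 in IgG and -1.28, 0.07 and 0.68 in NT cultures. The difference was 1.12 ± 0.50 (SE, 3 arrays against 6; limma, adjusted p = 0.820). The groups overlapped, and within each number the 7B12 array was the highest of these 3. Kcng3, another silent subunit, stood at -3.05, -1.53 and -1.84 in 7B12 cultures, against 0.22, 1.35 and -2.22 in IgG and 0.22, 0.60 and 0.01 in NT cultures. Its single probe set was dim, the third IgG array fell within the 7B12 range, and the difference was -2.17 ± 0.93 (SE; limma, adjusted p = 0.794). Kcnj16, a rectifier that pairs with the astrocyte channel Kcnj10, stood at -0.10, 0.03 and -1.15 in 7B12 cultures, against -0.09, 0.41 and 0.07 in IgG and 0.07, 0.44 and 0.06 in NT cultures. Its difference of -0.57 ± 0.25 (SE; limma, adjusted p = 0.825) rested mainly on the third 7B12 array.

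The remaining genes with the smallest unadjusted p values at 1.2-fold or more were, on the high side, Kcnj2 (a strong inward rectifier) at 1.83 ± 0.82, Kcnh8 at 1.64 ± 0.78, Kcne1 (a partner of Kcnq1) at 1.60 ± 0.87 and Kcnh5 at 1.46 ± 0.77, and all 4 were dim. On the low side were Kcnc4, a fast pore subunit of the Shaw type, at -0.85 ± 0.42, and 2 dim genes, Kcnn1, a small-conductance calcium-activated channel, at -0.82 ± 0.48 and Kcnk15, a leak channel subunit, at -1.61 ± 1.16 (SE), which was 0.088 without 7B12 1. Kcnc4 stood at -1.17, 0.24 and -0.93 in 7B12 cultures, against 0.13, 0.65 and 0.39 in IgG and -0.47, 0.68 and -0.03 in NT cultures, so the groups overlapped. Kcnh2, a pore of the ERG type, stood at 0.65, 0.53 and 0.49 in 7B12 cultures, against 0.29, 0.06 and -1.91 in IgG and 0.09, 0.26 and -3.24 in NT cultures. It alone of the Kcn genes had all 7B12 arrays above all 6 control arrays, which happened for 2.52% of all genes, and no Kcn gene had them all below, against 1.08%.

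Against the same controls, 11C7 also gave 0 Kcn genes past limma's adjusted threshold, and 0 of all genes (0%). At an unadjusted p under 0.05 there were 3 Kcn genes, Kcnh5, Kcnj12 and Kcne2, or 4% of 75 against 2.99% of all genes; 2 were higher and 1 lower, against 1.13% and 1.86%. Of the 75, 25 were above 0, against 56.1% of all genes, and the median difference was -0.15, against 0.03 over all genes. By kind, 9 of 31 voltage-gated subunits, 4 of 13 accessory subunits, 7 of 15 inward rectifiers, 3 of 11 leak channels and 2 of 5 calcium- or sodium-activated channels were above 0. Neuron markers lay low as well, with 3 of 12 general neuron genes (median -0.17), 0 of 8 principal neuron genes (-0.28) and 2 of 10 interneuron genes (-0.23) above 0, while 8 of 9 myelin genes were above 0 (0.16) and 2 of 8 astrocyte genes (-0.07). The general neuron mean was -1.07, 0.42 and 0.02 in 11C7 cultures numbered 1, 2 and 3. It was -1.07, 1.04 and -0.11 in IgG and -1.54, 1.28 and 0.19 in NT cultures. Only in number 2 did 11C7 lie below both. The median of the 75 Kcn genes was -0.47, -0.17 and -0.01 in 11C7 cultures. It was -0.26, -0.01 and -0.03 in IgG and -0.38, 0.25 and -0.09 in NT cultures, so 11C7 was not lower in number 3. None of the markers passed, and their part in the shift of the Kcn genes was not tested. The comparison shares its control arrays with that of 7B12, so the 2 sets of values are not independent.

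Kcnh5, a pore of the EAG type, stood at -0.70, -0.49 and 0.53 in 11C7 cultures, against -2.56, -2.38 and -3.86 in IgG and -0.34, -3.73 and -0.96 in NT cultures. The difference was 2.09 ± 0.77 (SE; limma, adjusted p = 1.00), its only probe set was dim and the first NT array lay within the 11C7 range. Kcnj12, a strong inward rectifier with 1 dim probe set, stood at -0.63, 0.09 and -0.48 in 11C7 cultures, against -0.15, -3.42 and 0.13 in IgG and -4.47, -3.57 and -3.41 in NT cultures, a difference of 2.14 ± 0.86 (SE). Here the IgG arrays numbered 1 and 3 were as high as the 11C7 arrays and the NT arrays were low. Kcne2, an accessory subunit known from the choroid plexus, stood at -3.03, -1.42 and -2.61 in 11C7 cultures, against -2.21, -1.67 and -0.75 in IgG and -0.56, -1.59 and 0.12 in NT cultures. The difference was -1.24 ± 0.49 (SE; limma, adjusted p = 1.00), 2 of its 3 probe sets were dim and the groups overlapped.

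Kcnk5, an alkali-sensitive leak channel, stood at -0.54, 0.07 and -1.23 in 11C7 cultures, against 0.34, -0.13 and 0.13 in IgG and 0.04, 0.27 and -0.45 in NT cultures, a difference of -0.60 ± 0.27 (SE). Kcnj3, a rectifier opened by G proteins, stood at -1.44, 0.00 and -1.07 in 11C7 cultures, against 0.09, -0.11 and 0.11 in IgG and -1.12, 0.68 and 0.37 in NT cultures, a difference of -0.84 ± 0.44 (SE). Both overlapped with the controls. The dim silent subunit Kcnv2 differed by -1.28 ± 0.71 and the leak channel Kcnk2 by -0.49 ± 0.28. On the high side the differences were 1.73 ± 0.82 for Kcnj2, 0.39 ± 0.30 for Kcnk12 and 0.41 ± 0.36 for Kcnj15 (SE), of which Kcnj2 and Kcnj15 were dim. No Kcn gene had all 11C7 arrays above or below all controls, which 0.935% and 0.788% of all genes had. The sign of the Kcnj15 and Kcnk12 differences turned when IgG alone or NT alone was the control, at -0.14 for Kcnj15 with IgG and -0.07 for Kcnk12 with NT.

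The direct comparison of 7B12 with 11C7 tests whether the antibodies differ, and it too gave 0 Kcn genes and 0 of all genes (0%) past limma's adjusted threshold. At an unadjusted p under 0.05 there were 4 Kcn genes, all higher in 7B12, or 5.33% of 75 against 3.69% of all genes, with 2.48% higher and 1.21% lower. Of the 75, 47 were above 0, against 48.8% of all genes, with a median of 0.10 against -0.01. Of the neuron markers, 10 of 12 general neuron genes (median 0.19), 7 of 8 principal neuron genes (0.25) and 9 of 10 interneuron genes (0.28) were above 0, against 0 of 9 myelin genes (-0.36) and 4 of 8 astrocyte genes (0.01). Of the other lists, 6 of 6 fibroblast and meningeal genes (1.04) and 8 of 11 microglia and macrophage genes (0.21) were above 0. So were 4 of 9 endothelial and mural genes (-0.56) and 1 of 5 oligodendrocyte precursor genes (-0.26). The general neuron mean was -1.06, 1.10 and -0.04 in 7B12 cultures numbered 1, 2 and 3, against -1.07, 0.42 and 0.02 in 11C7 cultures. These means lay apart in number 2 and close together in numbers 1 and 3. None of the markers passed, and their part in the Kcn shift was not tested. Kcne2 stood at -0.93, -0.29 and 0.09 in 7B12 cultures, against -3.03, -1.42 and -2.61 in 11C7 cultures, without overlap; the difference was 1.98 ± 0.57 (SE; limma, unadjusted p = 0.00599, adjusted p = 1.00). Kcnv2 stood at -0.47, 0.52 and -0.21 in 7B12 cultures, against -0.85, -2.38 and -3.99 in 11C7 cultures, without overlap and with both probe sets dim, a difference of 2.36 ± 0.82 (SE). Kcne1 differed by 2.51 ± 1.00 and Kcnk5 by 0.74 ± 0.32 (SE), both with overlap. Counting all Kcn genes, 5 lay wholly above in 7B12, against 3.72% of all genes, and 1 wholly below, against 3.43%.

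Because Kcne2 is known from the choroid plexus, the markers of choroid plexus and ependyma are given beside it. Of the 6 markers 5 were measured and 0 passed in 7B12 against 11C7. Their mean stood at -0.18, 0.53 and -0.39 in 7B12 cultures, -0.22, -0.56 and -1.32 in 11C7 cultures, -0.70, -0.59 and -0.50 in IgG cultures and -1.28, -1.24 and -0.67 in NT cultures. Otx2, a transcription factor of these cells, stood at -0.48, -0.10 and -1.54 in 7B12 cultures, against -4.49, -1.93 and -1.87 in 11C7 cultures, without overlap, a difference of 2.06 ± 0.73 (SE; limma, unadjusted p = 0.0190, adjusted p = 1.00). Transthyretin (Ttr), a secreted carrier, stood at 0.02, 2.14 and 0.18 in 7B12 cultures, against 2.60, -0.28 and -1.35 in 11C7 cultures, with overlap, a difference of 0.45 ± 0.93 (SE). The other 3 differed by 1.28 for Kl, -0.14 for Foxj1 and -0.23 for Folr1. In the first 11C7 array, where Kcne2 was lowest, Otx2 was the lowest and Ttr the highest of its values over the 12 arrays. The part of these cells in the Kcne2 difference was not tested.

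IgG against NT, the comparison of the controls with each other, gave 0 Kcn genes and 0 of all genes (0%) past limma's adjusted threshold. At an unadjusted p under 0.05 it had 6 Kcn genes, 8% of 75 against 1.91% of all genes, with 3 higher and 3 lower against 1.07% and 0.844%. The 6 were Kcnj12 at 2.67 ± 0.99, Kcnj15 at 1.10 ± 0.41, Kcnh8 at 2.08 ± 0.90, Kcnh4 at -2.44 ± 0.77, Kcnk12 at -0.93 ± 0.35 and Kcnma1 at -1.11 ± 0.44 (SE). All but Kcnk12 and Kcnma1 were dim, and Kcnma1 had 1 dim probe set of 3. Kcnma1, the large-conductance calcium-activated channel, stood at -1.57, -0.80 and -0.97 in IgG cultures, against -0.38, 0.93 and -0.56 in NT cultures, without overlap. The same held for the leak channel Kcnk12, at -0.15, -0.62 and -0.89 in IgG cultures, against 0.59, 0.45 and 0.08 in NT cultures. Of the 75, 34 were above 0, against 49% of all genes. In all, 2 Kcn genes lay wholly above in IgG, against 2.24% of all genes, and 4 wholly below, against 1.94%. The F test over the 4 groups gave 0 Kcn genes at the adjusted threshold and 4 at an unadjusted p under 0.05, or 5.33% against 3.63% of all genes.

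**Figure D2:**
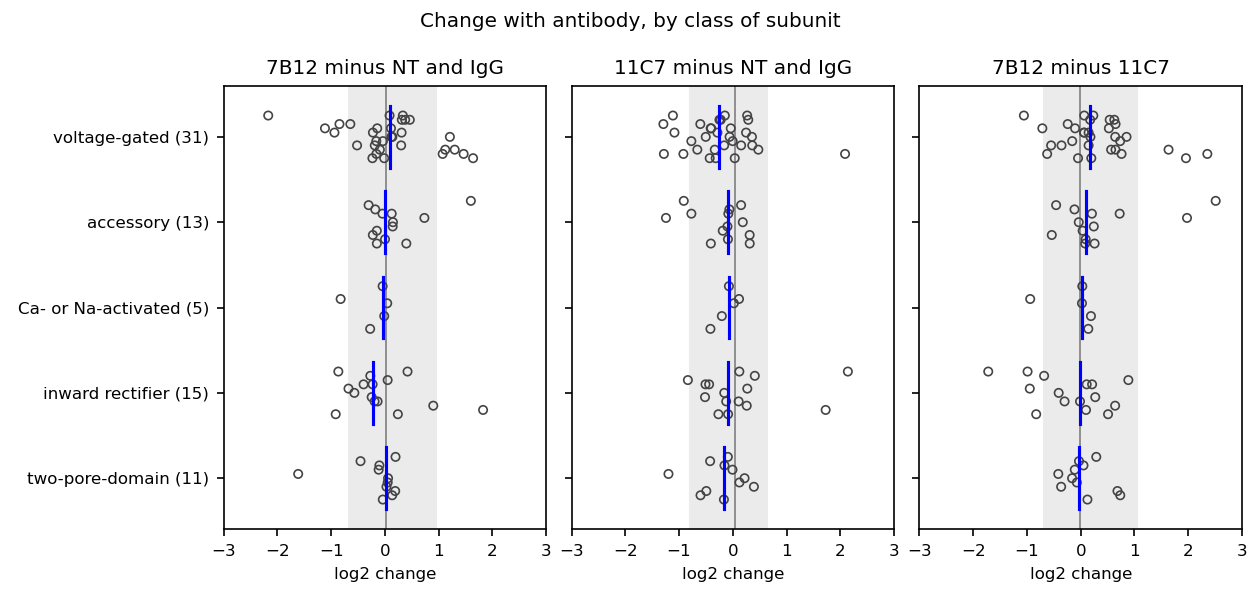
Log2 differences of the Kcn genes (points) by kind of subunit for 7B12 against the mean of NT and IgG, 11C7 against the same mean, and 7B12 against 11C7; blue ticks are the medians of each kind, the grey band spans the 5th to 95th percentile of all genes and the grey line is their median. All circles are open because 0 Kcn genes passed, and the voltage-gated tick lies at -0.25 under 11C7 and at 0.09 under 7B12.

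None of the subunits chosen for known roles in hippocampal neurons or glia passed in a comparison of groups. Kcna1, an axonal subunit that delays spikes, averaged 0.25 ± 0.61 in 7B12, 0.30 ± 0.50 in 11C7, 0.23 ± 0.56 in IgG and 0.30 ± 0.63 in NT cultures (SD, n = 3 each). Kcnd2, the main A-type pore of pyramidal cell dendrites, averaged -0.05 ± 1.15 in 7B12, -0.25 ± 0.84 in 11C7, 0.02 ± 1.05 in IgG and 0.35 ± 1.29 in NT cultures (SD, n = 3 each). Kcnj10, the rectifier of astrocytes that takes up potassium, averaged -0.03 ± 0.60 in 7B12, -0.14 ± 0.67 in 11C7, 0.41 ± 0.44 in IgG and 0.34 ± 0.55 in NT cultures (SD, n = 3 each). For 7B12 the differences from the controls were -0.01 ± 0.38 for Kcna1, -0.23 ± 0.71 for Kcnd2, -0.40 ± 0.38 for Kcnj10, -0.52 ± 0.38 for the M-current subunit Kcnq3 and 0.11 ± 0.31 for Kcnd3 (SE). For 11C7 they were -0.92 ± 0.68 for Kcnc2, -0.51 ± 0.38 for Kcnj10, -0.41 ± 0.31 for Kcnd3 and -0.04 ± 0.21 for the axonal subunit Kcna2 (SE).

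The replicate numbers, which run across all 4 groups, were compared next. With group in the fit, 19 Kcn genes differed between number 2 and number 1 (limma, adjusted p under 0.05), 25.3% of 75 against 18.9% of all genes. Of these, 18 were higher in number 2, 24% against 9.78% of all genes, and 1, Kcnk10, was lower, against 9.17%. The median difference was 0.40 over the Kcn genes, against -0.02 over all genes. Number 2 was above number 1 within 4 of 4 groups for 24 Kcn genes, against 19.8% of all genes, and below within 4 of 4 for 5, against 21.7%. Leaving out NT 1 cut the 19 calls to 12, or 16% of 75 against 8.87% of all genes. Leaving out NT 2 cut them to 11, or 14.7% against 9.04%.

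By role, 10 of 31 voltage-gated pore subunits, 3 of 13 accessory subunits, 3 of 15 inward rectifiers, 1 of 11 leak channels and 1 of 5 calcium- or sodium-activated channels were higher in number 2. The voltage-gated ones were Kcna1, Kcna4, Kcnc1, Kcnc2, Kcnd2, Kcnq5 and the silent subunits Kcng2, Kcns2, Kcns3 and Kcnv1, and the accessory ones were Kcnab1, Kcnip4 and Kcnmb4. The rectifiers were Kcnj4, Kcnj6 and Kcnj11, and the others were Kcnk1 and Kcnma1. Without dim probe sets 56 Kcn genes could be fitted and 22 were higher, against 13.8% of all genes so treated.

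Kcna1 stood at 0.95, 0.88, 0.79 and 1.03 in number 2 (7B12, 11C7, IgG and NT in this order here and in the next paragraphs), against -0.15, 0.03, -0.33 and -0.15 in number 1. No array overlapped, and the difference was 1.06 ± 0.12 (SE, 4 arrays against 4), or 2.09-fold (limma, adjusted p = 0.00181). Kcnc1, a pore that lets fast-spiking neurons repolarise quickly, stood at 1.31, 0.40, 1.06 and 1.31 in number 2, against -0.11, -1.06, -1.13 and -0.55 in number 1, or 3.32-fold (limma, adjusted p = 0.00286). Its relative Kcnc2, found in many interneurons and with 3 of 6 probe sets dim, differed by 1.94 ± 0.28 (SE; adjusted p = 0.00484). Kcnd2 stood at 1.22, 0.17, 1.14 and 1.70 in number 2, against -1.001, -1.21, -0.96 and -0.88 in number 1. The Kcnd2 difference was 2.07 ± 0.27 (SE), or 4.20-fold (limma, adjusted p = 0.00337), without overlap. Kcna4, an A-type pore of axons, differed by 2.09 ± 0.48 (SE; adjusted p = 0.0237), with its lowest value, -3.30, in NT 1. The silent subunit Kcng2, with 2 of 3 probe sets dim, differed by 2.64 ± 0.29 (SE), or 6.24-fold (adjusted p = 0.00181).

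Among the accessory subunits, Kcnab1, which adds inactivation to Shaker pores, stood at 1.49, 0.10, 1.27 and 1.46 in number 2, against -1.53, -1.05, -1.38 and -1.39 in number 1. The difference was 2.42 ± 0.29 (SE), or 5.34-fold (limma, adjusted p = 0.0025), and no array overlapped. Kcnip4, a calcium sensor protein that joins Shal pores such as Kcnd2, stood at 1.22, -0.17, 0.62 and 0.92 in number 2, against -2.08, -1.74, -1.18 and -2.62 in number 1, or 5.86-fold (limma, adjusted p = 0.00502). Kcnmb4, the neuronal partner of Kcnma1, differed by 0.79 ± 0.16, and Kcnma1 itself by 0.94 ± 0.24 (SE; adjusted p = 0.0157 and 0.0342). Pore and partner were both higher in number 2, and so were Kcnd2 and Kcnip4. Kcnma1 overlapped, however, at -0.80 to 0.93 in number 2 against -1.57 to -0.38 in number 1. The differences of its 3 probe sets ran from -0.36 to 2.59.

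Among the inward rectifiers, Kcnj4, a strong rectifier of forebrain neurons, stood at 1.25, 0.42, 1.23 and 1.48 in number 2, against -0.44, -0.81, -0.08 and -0.74 in number 1, or 3.05-fold (limma, adjusted p = 0.0037). Kcnj11, the pore of the channel closed by ATP, stood at 0.80, 0.38, 0.28 and 1.10 in number 2, against -1.27, -0.71, -1.33 and -1.38 in number 1, or 3.52-fold (limma, adjusted p = 0.00418). Neither gene overlapped between the numbers. Kcnj6, a rectifier opened by G proteins, differed by 1.49 ± 0.40 (SE; adjusted p = 0.0385), and the astrocyte gene Kcnj10 by 0.44 ± 0.34 (SE; adjusted p = 0.409), which did not pass. Among the leak channels, Kcnk1 differed by 1.67 ± 0.44 (SE; adjusted p = 0.036). Kcnk10, a stretch-sensitive leak channel, stood at -0.25, -0.06, -0.04 and -0.32 in number 2, against 0.40, 0.41, 0.63 and 0.68 in number 1. It fell by 0.70 on the log2 scale in number 2 relative to number 1 (limma, adjusted p = 0.00562), without overlap.

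**Figure D3:**
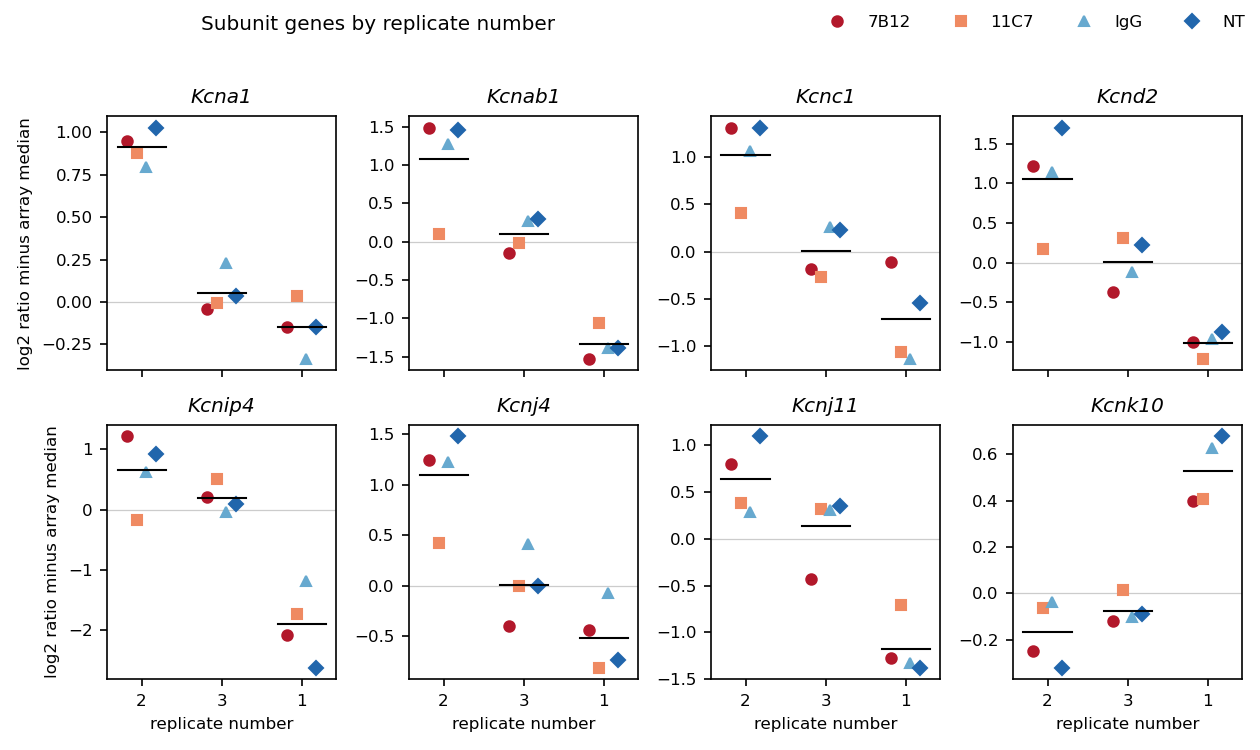
Log2 ratio less the array median of Kcna1, Kcnab1, Kcnc1, Kcnd2, Kcnip4, Kcnj4, Kcnj11 and Kcnk10 on each array, by replicate number in the order 2, 3, 1; each point is 1 array and the bar is the mean of the 4 arrays of a number. The bars of number 2 lie above those of number 1 except in Kcnk10, where all 4 arrays of number 2 lie below those of number 1.

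Of the genes higher in number 2 than in number 1, 8 had no dim probe set and a promoter entry. The promoters shown are those of the 4 with the smallest unadjusted p in that comparison. Each promoter is the 250 bases before the gene's start in RefSeq (build GRCr8), and 52 of the 75 Kcn genes had an entry. Capitals mark letters found on either strand from 3 motifs searched, a GC box (GGGCGG or CCGCCC), a cAMP response element core (TGACG or CGTCA) and a TATA box (TATAAA or TTTATA). In these sequences no match overlaps another.
Kcnab1 promoter, chr2:151614301-151614550 (plus strand): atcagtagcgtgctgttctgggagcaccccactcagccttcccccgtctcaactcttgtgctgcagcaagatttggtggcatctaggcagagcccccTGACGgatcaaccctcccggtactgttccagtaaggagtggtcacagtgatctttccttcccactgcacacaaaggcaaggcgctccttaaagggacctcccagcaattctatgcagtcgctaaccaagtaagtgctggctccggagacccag
Kcnc1 promoter, chr1:106038997-106039246 (plus strand): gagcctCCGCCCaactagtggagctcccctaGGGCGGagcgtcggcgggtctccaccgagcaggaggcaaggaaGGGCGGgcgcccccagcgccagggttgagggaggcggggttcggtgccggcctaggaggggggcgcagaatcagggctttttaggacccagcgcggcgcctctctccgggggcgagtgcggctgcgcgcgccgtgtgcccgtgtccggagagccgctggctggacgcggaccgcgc
Kcnd2 promoter, chr4:50742235-50742484 (plus strand): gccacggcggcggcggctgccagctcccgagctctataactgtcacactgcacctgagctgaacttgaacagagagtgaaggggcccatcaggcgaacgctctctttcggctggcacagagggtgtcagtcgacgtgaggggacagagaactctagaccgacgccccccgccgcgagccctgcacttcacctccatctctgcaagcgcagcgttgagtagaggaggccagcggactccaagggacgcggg
Kcnj4 promoter, chr7:112954548-112954797 (minus strand): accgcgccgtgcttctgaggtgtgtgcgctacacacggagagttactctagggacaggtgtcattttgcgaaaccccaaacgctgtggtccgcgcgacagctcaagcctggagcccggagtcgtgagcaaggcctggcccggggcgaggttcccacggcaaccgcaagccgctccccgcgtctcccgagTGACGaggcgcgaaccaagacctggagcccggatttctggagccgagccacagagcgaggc

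Kcnc1 held 3 GC boxes, Kcnab1 and Kcnj4 held 1 response element core each, and Kcnd2 held none of the letters searched. The GC box occurred in 30 of the 52 Kcn promoters, or 57.69%, against 30.47% of 33469 promoters of the same length. The response element core occurred in 11 of 52, or 21.15%, against 18.22% of all, and the TATA box in 1 of 52 against 12.93%. Among the 12 promoters of genes higher in number 2 the GC box occurred in 6. The G and C content of the 4 sequences was 56% in Kcnab1, 74.4% in Kcnc1, 64% in Kcnd2 and 65.6% in Kcnj4. A match is only a description of letters in this window.

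Number 2 against number 3 gave 4 Kcn genes past the adjusted threshold, or 5.33% of 75 against 4.23% of all genes. All were higher in number 2, against 2.45% of all genes, and 0 lower, against 1.78%. These were Kcna1 at 0.86 ± 0.12, Kcnh1, an EAG type pore, at 1.25 ± 0.23, Kcnj4 at 1.09 ± 0.22 and Kcnc1 at 1.01 ± 0.22 (SE; limma, adjusted p = 0.0171, 0.0332, 0.0411 and 0.0476). At an unadjusted p under 0.05 there were 18 higher and 2 lower, against 11.2% and 10.9% of all genes. The 4 calls depend on single arrays, as did the calls over all genes. There were 0 without NT 2, NT 3, IgG 2 or 7B12 2, against 0.162%, 0.0914%, 0.183% and 0.823% of all genes. There was 1 without NT 1, IgG 1 or 7B12 1, against 2.4%, 1.56% and 1.91%, and 2 without 7B12 3, against 0.563%. On the values as deposited, without subtraction of the array median, 3 were higher and 1 lower (5.33% of 75 against 4.2% of all genes). After quantile normalization 5 were higher and 1 lower (8% against 4.74%). The lower gene was Kcnj5, and Kcnc1 did not pass in either setting.

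Number 3 against number 1 gave 14 Kcn genes, 9 higher and 5 lower in number 3, or 18.7% of 75 against 19% of all genes, with 9.31% of all genes higher and 9.71% lower. The share is close to the background. Of the higher ones, Kcnab1 differed by 1.43 ± 0.29, Kcnip4 by 2.10 ± 0.38, Kcng2 by 1.67 ± 0.29, Kcnj11 by 1.31 ± 0.26 and Kcns2 by 1.20 ± 0.25 (SE; limma, adjusted p = 0.0174, 0.0121, 0.0109, 0.015 and 0.0186). The other 4 were Kcna3, Kcnd2, Kcnip3 and Kcnmb4. The lower ones were Kcnk10, Kcnd1, Kcnh1, Kcnh2 and the dim Kcnmb1. Kcnd1, a Shal type pore, stood at -1.08, -0.70, -0.08 and -0.95 in number 3, against 0.29, 0.27, 0.21 and 0.26 in number 1, a difference of -0.96 ± 0.19 (SE; limma, adjusted p = 0.015). Kcnh1 stood at -1.24, -0.60, -0.84 and -0.75 in number 3, against -0.02, 0.12, 0.26 and 0.49 in number 1, a difference of -1.07 ± 0.23 (SE; limma, adjusted p = 0.021). Both lay wholly below number 1, and Kcnh2 was at -2.76, -1.91 and -3.24 in the 11C7, IgG and NT arrays of number 3 but at 0.49 in the 7B12 array. The 14 calls fell to 3 without NT 1, 4 without NT 3, 5 without IgG 1 or 7B12 1, 6 without IgG 3 and 7 without 11C7 3. The share of all genes fell too, from 19% to 6.48% without NT 1 and 8.17% without NT 3. It was 8.74% without IgG 1, 7.89% without 7B12 1, 10.3% without IgG 3 and 13.1% without 11C7 3.

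Over all 3 numbers together, the F test called 20 Kcn genes, 26.7% of 75 against 23.6% of all genes, a share near the background. Of the 20, 17 were among the 45 genes without a dim probe set, 3 among the 11 with some and 0 among the 19 with dim ones only. The 20 calls became 11 without NT 1, 13 without NT 3 or IgG 3 and 12 without 7B12 1. The share of all genes in these runs was 9.51% without NT 1, 13.9% without NT 3, 15.2% without IgG 3 and 11.5% without 7B12 1.

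**Figure D4:**
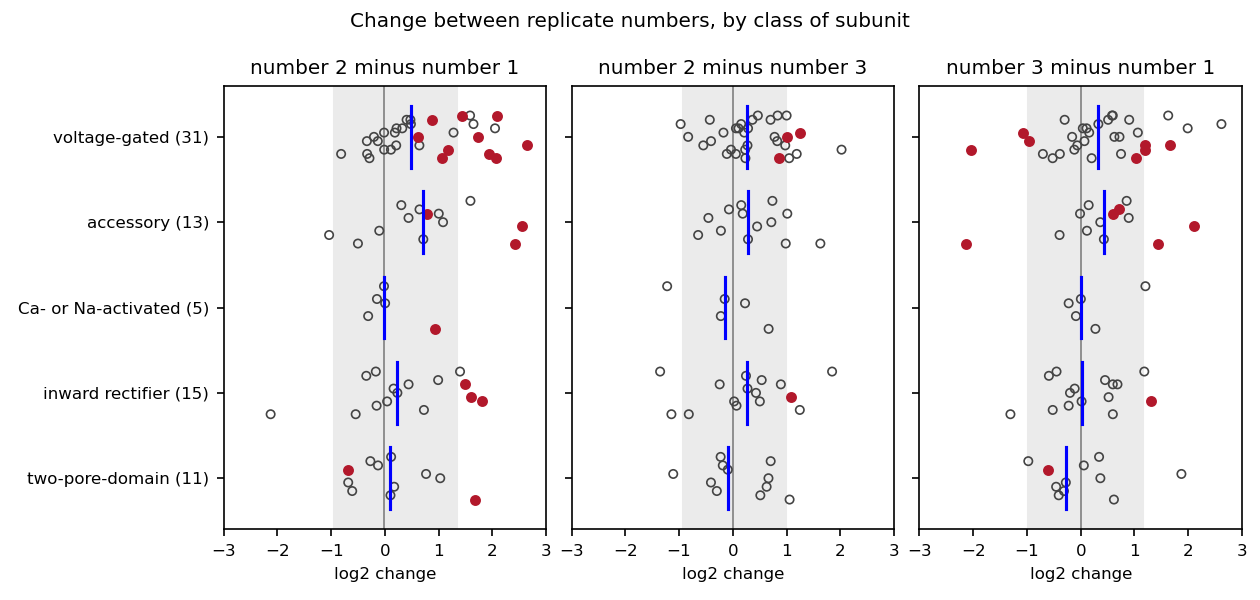
Log2 differences of the Kcn genes (points) by kind of subunit for number 2 against number 1, number 2 against number 3 and number 3 against number 1, with group in the fit; red filled circles passed the adjusted threshold, blue ticks are medians of each kind, and the grey band and line are the 5th to 95th percentile and the median of all genes. The left panel holds 18 red circles above 0 and 1 below, the middle panel 4 above and the right panel 9 above and 5 below.

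The second 11C7 array was lower than the other arrays of its number. Over the 18 Kcn genes higher in number 2, the array medians in number 2 were 0.89 in 7B12, 0.19 in 11C7, 0.81 in IgG and 0.95 in NT. These genes were chosen by that comparison; over all 75 the medians were 0.33 in 7B12, -0.17 in 11C7, -0.01 in IgG and 0.25 in NT, so the second IgG array lay near 0 as well. The 11C7 array was the lowest of the 4 for 11 of the 18, or 61.1%, against 59.4% of the 1390 genes of all kinds called higher in number 2. Among all Kcn genes it was the lowest for 35 of 75, against 27.8% of all genes. Without this array alone the calls between number 2 and number 1 were 23, or 30.7% of 75 against 21.2% of all genes, and without the 3 arrays of 11C7 they were 19, or 25.3% against 19.2%. The lower values of 11C7 in Kcnc1, Kcnd2 and Kcnab1, at differences from the controls of -0.50, -0.43 and -0.41, include it.

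Markers of several cell types moved with the replicate numbers too, and are given beside the Kcn genes with the background of 9.78% higher and 9.17% lower in number 2 than in number 1. The mean of 12 general neuron genes was 0.42 to 1.28 in number 2, -0.11 to 0.19 in number 3 and -1.54 to -1.06 in number 1. Within number 2 it was 1.10 in 7B12, 0.42 in 11C7, 1.04 in IgG and 1.28 in NT. Of the 12, 11 were higher in number 2 than in number 1 by limma's adjusted threshold, as were 6 of 8 principal neuron genes and 7 of 10 interneuron genes, and of these lists 1 gene, the interneuron gene Reln, was lower, by -1.42 ± 0.15 (SE; limma, adjusted p = 0.00153). The mean of 8 astrocyte genes was -0.27 to 0.14 in number 2, -0.22 to 0.19 in number 3 and 0.03 to 0.16 in number 1, but single genes moved both ways between number 2 and number 1, with Aqp4 higher by 0.53 and Aldh1l1 and Fgfr3 at -1.06 and -0.53 (limma, adjusted p = 0.0470, 0.00406 and 0.00877). Oligodendrocyte and myelin genes were -0.37 to 0.09 in number 2, 0.08 to 0.50 in number 3 and -0.99 to -0.66 in number 1, and microglia and macrophage genes were -0.48 to 0.20, 0.44 to 0.79 and -0.34 to 0.22 in these numbers in the same order. Of 9 myelin genes 7 were higher in number 2 than in number 1. All 9 were higher in number 3 than in number 1, against 9.31% of all genes. Of 11 microglia and macrophage genes 2 were lower in number 2 than in number 1. In number 2 against number 3, 8 of these 11 were lower, against 1.78% of all genes. In number 3 against number 1, 5 of them were higher. The 9 endothelial and mural genes averaged -0.91 to -0.66 in number 2, -0.61 to 0.19 in number 3 and -0.40 to 0.53 in number 1, without overlap between numbers 2 and 1, and 3 of them, Cldn5, Vwf and Pdgfrb, were lower in number 2 than in number 1. Because ratios carry no level, no marker can be said to be absent, and the part of cell content in the Kcn differences was not tested.

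**Figure D5:**
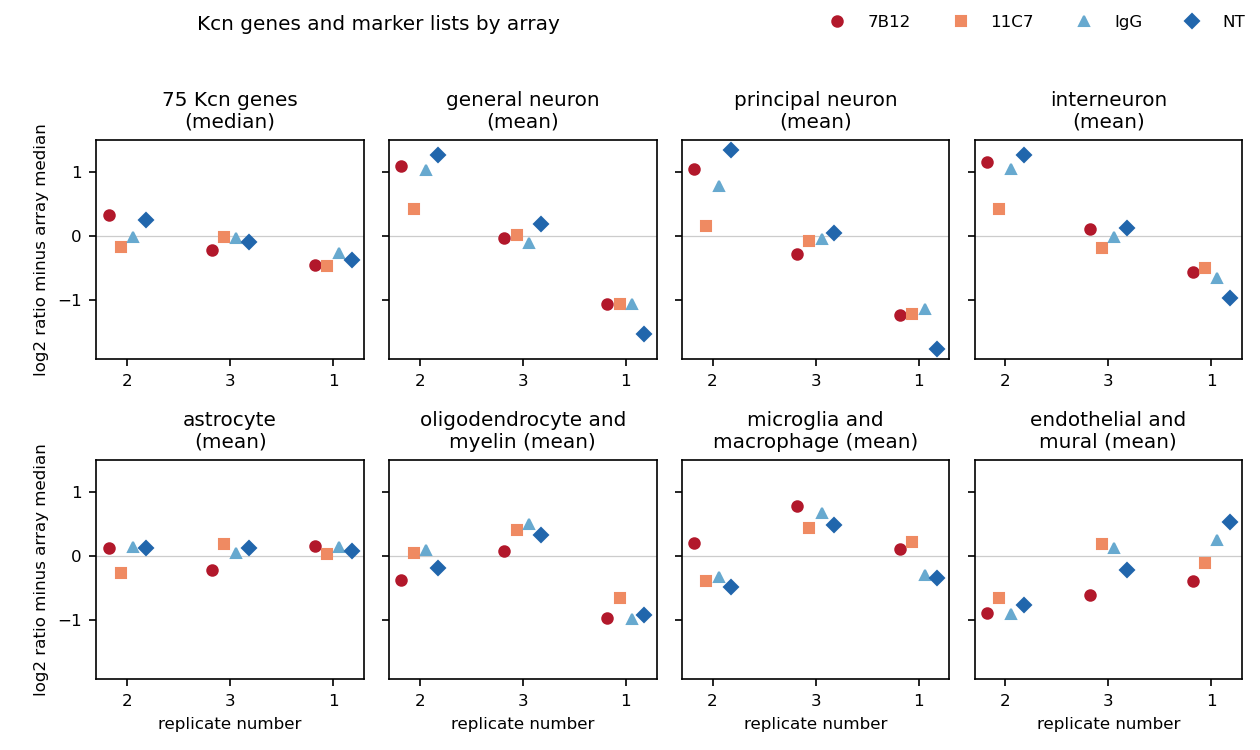
Median of all 75 Kcn genes and means of 7 marker lists (log2 ratio less the array median) on each array, by replicate number in the order 2, 3, 1; each point is 1 array. The Kcn median lies between -0.17 and 0.33 in number 2 and between -0.47 and -0.26 in number 1, the neuron lists are high in number 2 and low in number 1, the astrocyte mean stays between -0.27 and 0.19, and endothelial and mural genes are low in number 2.

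Partners outside the family were taken from lists of known partners, of which 13 of 15 potassium channel partner genes and 10 of 14 pump and cotransporter genes were measured. None passed in any comparison of groups. Abcc8, the regulatory subunit that joins Kcnj11, had the smallest p of the partners under 11C7, at -1.10, -0.36 and -1.49 in 11C7 cultures, against 0.45, 0.44 and 0.40 in IgG and -0.62, 0.89 and 0.19 in NT cultures, a difference of -1.27 ± 0.35 (SE; limma, adjusted p = 1.00). The first NT array overlapped. Between number 2 and number 1, 5 of 13 partners were higher and 0 lower, against the backgrounds of 9.78% and 9.17%. Lgi1, a secreted protein that binds Shaker complexes at synapses, differed by 3.34 ± 0.29, Cntn2, an axonal adhesion protein that clusters them, by 2.82 ± 0.43, and Dpp10, an auxiliary subunit of Shal channels, by 1.63 ± 0.30 (SE; limma, adjusted p = 0.000893, 0.00544 and 0.0107). Of the 10 pump and cotransporter genes 2 were higher and 3 lower. The neuronal cotransporter Slc12a5, which moves potassium and chloride out of cells, differed by 2.62 ± 0.18, and Fxyd1, a regulator of the sodium pump, by -0.62 ± 0.08 (SE; limma, adjusted p = 0.000653 and 0.00359).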

How the data were processed

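RNA of 12 pooled culture samples, grouped by their titles into 4 groups of 3, was measured on rat arrays of Affymetrix. Per the submitters' processing notes the authors used GCOS 1.4 and MAS5; the design text adds GeneSpring, scaling per chip and to each gene's control median, a present call filter, a test by analysis of variance and a cut at 1.2-fold. What the authors deposited is a ratio for each probe set. A 12-array median of 1 (tolerance 0.0015) was found for 76.4% of them, so the divisor looks like the median of all arrays, not of the controls. A constant divisor does not alter differences on the log2 scale, but the level behind a ratio is lost. Precision is limited by having 3 arrays per group.

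Of 31099 rows, 57 spike-in controls were left out. Symbols came from the platform annotation; Entrez identifiers matched for all 126 Kcn probe sets and changed 0 symbols. Each array's median was subtracted from log2 of its ratios, which were averaged over the probe sets of a gene. limma 3.58.1 (R 4.3.3) fitted all 14217 genes with lmFit, contrasts and eBayes without trend, two-sided, with Benjamini-Hochberg adjustment over all genes and a threshold of 0.05. Groups were fitted without, and replicate numbers with, the other factor in the model, both over all 12 arrays. The script was tested on simulated data. For the group test these held no differences between replicate numbers, so they do not show what the group fit could detect here.

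The members, lists, rule for named genes and tests were chosen with earlier results of these data known. Named genes are those past the threshold between groups, up to 5 per direction and comparison with the smallest unadjusted p at 1.2-fold or more, and a set of known roles. Kcna3, Kcnip3, Kcnk1, Kcnmb4, Kcnq5, Kcns3, Kcnv1 and Kcnh2 in 7B12 fall outside it and were named after their values were seen, since they complete a count. Alternatives covered single probe sets, the dim filter, scaling, trend, array weights, the control used, the replicate block and leaving out arrays.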

Additional observations from a re-analysis of the deposited data

How the results depend on the processing

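The count of 0 Kcn genes between groups held in every alternative run for the 4 contrasts, single arrays left out (0 to 0) included. Genes outside the family did pass in some of these runs. For 7B12 the share of all genes was 0.134% without 11C7 1, 0.0492% with only the groups compared and 0.00703% without 7B12 3. For 11C7 it was 0.00703% without IgG 2, and for IgG against NT 0.0048% of single probe sets passed. In place of the F test over groups, the methods' analysis of variance with a 1.2-fold limit gave 1 Kcn gene unadjusted, Kcne2. That is 1.33% of 75 against 2.97% of all genes, and after Benjamini-Hochberg it gave 0 Kcn genes and 0% of all genes. Same-numbered arrays correlated at 0.0969 to 0.427 in their deviations from the group means. Only 11C7 and IgG in number 3, at 0.0969, fell under the 0.1 asked of pairs, and so the numbers were not taken as pairs. The group comparisons therefore hold the differences between numbers within their spread. All 12 matched best with their own number, which is a hint from the data and not the design. With the replicate block, 0 Kcn genes passed in each contrast; at an unadjusted p under 0.05 there were 5 for 7B12 (6.67% of 75 against 11.8% of all genes), 7 for 11C7 (9.33% against 5.99%), 5 for IgG against NT (6.67% against 3.42%) and 7 for 7B12 against 11C7 (9.33% against 8.23%). With only the groups compared, chosen after seeing the data, the block also gave 0 Kcn genes. Of all genes 0.703% passed in that run for 7B12 and 0% for 11C7.

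Number 2 against number 3 gave 7 calls with single probe sets (9.33% of the Kcn genes against 3.81% of all probe sets), 12 of 56 without dim probe sets (21.4% against 8.77% of all genes), 8 with a trend (10.7% against 6.58%) and 9 with array weights (12% against 6.37%). Leaving out 1 array gave 11 to 23 calls for number 2 against 1, 0 to 6 for 2 against 3, 3 to 15 for 3 against 1 and 11 to 21 for the F test over numbers. The share of all genes in these runs ranged from 8.87% to 21.2%, 0.0914% to 4.46%, 6.48% to 20.8% and 9.51% to 24.5% in the same order. Differences that turned sign were Kcnk15 under 7B12 without its first array, at 0.088 (-2.85 without 7B12 3), Kcnj15 under 11C7 with IgG alone, at -0.14, and Kcnk12 under 11C7 with NT alone, at -0.071; the cause was not tested. Of the values of single genes, 1211 stayed on the same side of the threshold, 85 lost a call and 15 gained one. The 1211 include values that passed in neither fit, as between groups, where 0 Kcn genes passed, so they do not count calls that held. Fits of single probe sets give no value per gene. Of the medians by kind of subunit, 769 moved by less than the spread between replicates and 35 by more, many of them of the leak channels. Dim probe sets, whose spread is wide, limit the precision.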
